A study of Mus musculus with 6 samples.

Results

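Slc13a3, Acod1, Slc25a10, Slc25a11 and Clybl, 5 genes that import, make, carry or break down itaconate, were followed through RNA sequencing of mouse bone marrow cells that had been treated with all-trans retinoic acid (RA). They are the rows of the 6 count tables that bear these names, 5 of 25722 genes listed, and all 5 were counted in every library and passed the filter on low counts. The set was selected on measured levels, because Slc13a3 was the most counted gene in 3 of the 6 libraries, so its level and rank are given as a description and were not tested. The cells were described by the study as wild-type C57BL/6 bone marrow mesenchymal stem cells (BMSCs), grown at 5% oxygen in low-glucose medium with serum and a ROCK inhibitor. The name BMSCs is used below as the study's name for the samples. Control BMSCs (n = 3 libraries) received the solvent DMSO, and RA-treated BMSCs (n = 3 libraries) received RA at 1 μM for 48 h according to the sample labels, whereas the methods of the study state a lower dose and a shorter time, so the exposure is not settled. The labels speak of 2 biological replicates although there are 3 libraries per group, and they do not say whether the libraries of a group came from separate cultures or mice, so that p-values measure the spread between these libraries, which may be technical.

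Itaconate is a dicarboxylate made in mitochondria from cis-aconitate, an intermediate of the tricarboxylic acid (TCA) cycle, by the decarboxylase that Acod1 (also called Irg1) encodes. The enzyme is known above all from activated macrophages, in which itaconate inhibits succinate dehydrogenase and modifies cysteines of proteins such as KEAP1. The mitochondrial dicarboxylate and oxoglutarate carriers, encoded by Slc25a10 and Slc25a11, are thought to move itaconate across the inner membrane, Slc13a3 encodes a sodium-coupled dicarboxylate transporter of the plasma membrane that takes up itaconate, and Clybl encodes the citramalyl-CoA lyase that completes its breakdown to acetyl-CoA and pyruvate.

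In GRCm38, the build named mm10 in the submitters' processing notes, Slc13a3 (ENSMUSG00000018459) lies on the minus strand of chromosome 2 from 165405028 to 165473230, and Acod1 (ENSMUSG00000022126) on the plus strand of chromosome 14 from 103046977 to 103056573. Slc25a10 (ENSMUSG00000025792) lies on the plus strand of chromosome 11 from 120491840 to 120499187. Slc25a11 (ENSMUSG00000014606) lies on the minus strand of the same chromosome from 70644196 to 70647479, and Clybl (ENSMUSG00000025545) on the plus strand of chromosome 14 from 122181704 to 122402234. The stretches just upstream of the transcription starts of Slc13a3 and Acod1 are shown because these genes had the largest differences between libraries, in opposite directions. They are RefSeq sequence of GRCm38.p6, 5′ to 3′ on the strand of the gene, and hold only bases upstream of the start, chr2:165473231-165473447 on the minus strand for Slc13a3 (217 bases) and chr14:103046762-103046976 on the plus strand for Acod1 (215 bases). Capitals mark an E box (CACGTG) in the first and a retinoid receptor core motif (AGGTCA) in the second.
Slc13a3: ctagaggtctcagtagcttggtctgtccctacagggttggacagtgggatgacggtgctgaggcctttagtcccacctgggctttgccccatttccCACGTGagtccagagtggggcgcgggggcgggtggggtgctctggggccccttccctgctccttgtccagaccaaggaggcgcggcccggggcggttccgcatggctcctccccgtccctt
Acod1: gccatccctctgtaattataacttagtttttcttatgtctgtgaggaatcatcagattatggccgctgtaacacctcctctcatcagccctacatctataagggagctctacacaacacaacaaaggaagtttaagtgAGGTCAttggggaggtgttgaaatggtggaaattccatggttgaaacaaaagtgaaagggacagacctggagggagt

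All 5 genes had a RefSeq promoter window, 250 bases before to 50 after the start, and 5 motifs were searched on both strands. The E box was in 7.15% and AGGTCA in 16.3% of the 32817 promoter windows of the same length, so that 1 match in a window is common. The window of Acod1 also held TATAAA (13.6% of windows), and that of Slc25a10 held a kappa B site (8.46%). A core of the interferon response element (3.43%) was in none of the 5, and the windows of Slc25a11 and Clybl held none of the motifs. A motif may overlap another one, a match is a description of the letters, and a missing match says only that they are not in this window. By base composition the genes differed more, since the window of Acod1 held 2 CpG dinucleotides while those of Slc25a10, Slc13a3, Slc25a11 and Clybl held 15, 22, 24 and 26, beside a median of 7 over all windows.

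The libraries held 14737636 to 18511905 counts, so that 3 counts, the lower limit of what was taken as detection, corresponded to 0.162 to 0.204 CPM (counts per library total, rescaled by the TMM method). On the first principal component, with 57.2% of the variance of the 1000 genes that varied most, control 2, RA 1 and RA 2 (library set 1) stood apart from control 1, control 3 and RA 3 (library set 2), and 1455 of 13842 tested genes had set means at least 2-fold apart. These sets come from the data and not from the labels, each holds both treatments, and the members are therefore given by set as well as by treatment. All 15 macrophage markers looked at, among them Adgre1, Csf1r and Lyz2, were present, with a summed level of 21576 to 23762 CPM in controls and 20926 to 22384 after RA. The 12 mesenchymal stromal markers summed to 2303 to 4429 CPM in controls and 1686 to 3454 after RA, with collagen genes and Cxcl12 high. The macrophage sum was thus far above the stromal sum in every library. Levels of the 5 genes in this bulk RNA cannot be assigned to stromal cells. Of the defining markers, Eng was at 33.0 to 59.8 CPM and Ly6a at 17.9 to 39.5 CPM, while Thy1 and Nt5e were at no more than 1.12 CPM in any library. The sets did not overlap in 47.8% of all tested genes, 3234 of them higher and 3376 lower in set 1. Of the 15 macrophage markers, 11 were lower and 2 higher in every library of set 1 than in any of set 2, and of the 10 tested stromal markers 4 were higher and 0 lower. In RA-treated against control BMSCs 0 of the 15 macrophage and 0 of the 10 tested stromal markers were called, beside 0.0433% of all tested genes. In a fit with the library set as covariate, which called 1.54% of all tested genes, 0 macrophage markers and 2 stromal markers were called, Lepr, the leptin receptor (log2 fold change 3.58, edgeR adjusted p = 0.00644, 0.478 to 0.490 CPM in controls and 2.498 to 9.47 after RA), and Ly6a (log2 fold change -0.91, edgeR adjusted p = 0.0152, 34.1 to 39.5 CPM in controls and 17.9 to 20.3 after RA). Lepr passed the filter on low counts only through the RA-treated libraries, where it is high, so its fitted value and p are a description and support nothing. Among stromal markers not called in that fit, Col1a1, Col1a2, Col3a1, Vcam1 and Eng had log2 fold changes of -0.91, -0.85, -0.68, -0.29 and -0.13. Pdgfra, Cxcl12 and Pdgfrb were at 0.53, 0.27 and 0.11. The treatment groups did not overlap for 3 of the 10 stromal markers (these 2 and Cxcl12, higher after RA) and 1 of the 15 macrophage markers, against 12.6% of all tested genes. The part of the cell mixture in the values of the 5 genes was not tested, and in bulk RNA fewer cells of a type cannot be told apart from less RNA per cell. Markers of neutrophils (3.02 to 4.25 CPM in sum), endothelial cells (6.85 to 17.0), B cells (0.333 to 5.38) and erythroid cells (0.136 to 0.372) were low in all libraries. The sums for endothelial cells (6.85 to 11.5 CPM in set 1 and 15.8 to 17.0 in set 2) and B cells (0.333 to 1.202 and 2.95 to 5.38) were higher in every library of set 2. Each rests on a single gene, Pecam1 (means of 4.61 and 12.8 CPM in sets 1 and 2) and Cd79b (0.596 and 4.43). Cdh5 (2.83 and 2.12) and Emcn (0.642 and 0.160) were higher on average in set 1. Kdr (1.12 and 1.10) and Tie1 (0.211 and 0.230) were about equal, and Cd79a and Ms4a1 had at most 1 count per library. The part of these cells in the values of Slc13a3 was not tested.

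Slc13a3, the importer, was at the top of the transcriptome. It had 225079 counts in control 1, 102941 in control 2 and 205354 in control 3, and 99212 in RA 1, 95862 in RA 2 and 199278 in RA 3. Controls 1 and 3 and RA 3 were high and the other 3 libraries were at about the same lower level, so the treatment groups overlapped. It took 1.53% of all counts in control 1 (95% Wilson interval 1.52 to 1.53, for counting error only), 1.37% in control 3 and 1.33% in RA 3, against 0.556% in control 2, 0.571% in RA 1 and 0.623% in RA 2. It was the most counted gene in the first 3 of these libraries and ranked 6 in each of the other 3. Fth1, the ferritin heavy chain, was the highest other gene in all 6 libraries, and Slc13a3 had 1.66, 1.42 and 1.35 times its counts in control 1, control 3 and RA 3 but 0.528, 0.579 and 0.540 times its counts in control 2, RA 1 and RA 2. In the libraries where it ranked 6, the next gene up was Tmsb4x with 134787 counts (control 2), Ftl1 with 130631 (RA 1) and mt-Co1 with 108249 (RA 2), and the next gene down was Eef1a1 with 97870 and 97348 (control 2 and RA 1) and Ftl1 with 92421 (RA 2).

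**Figure D1:**
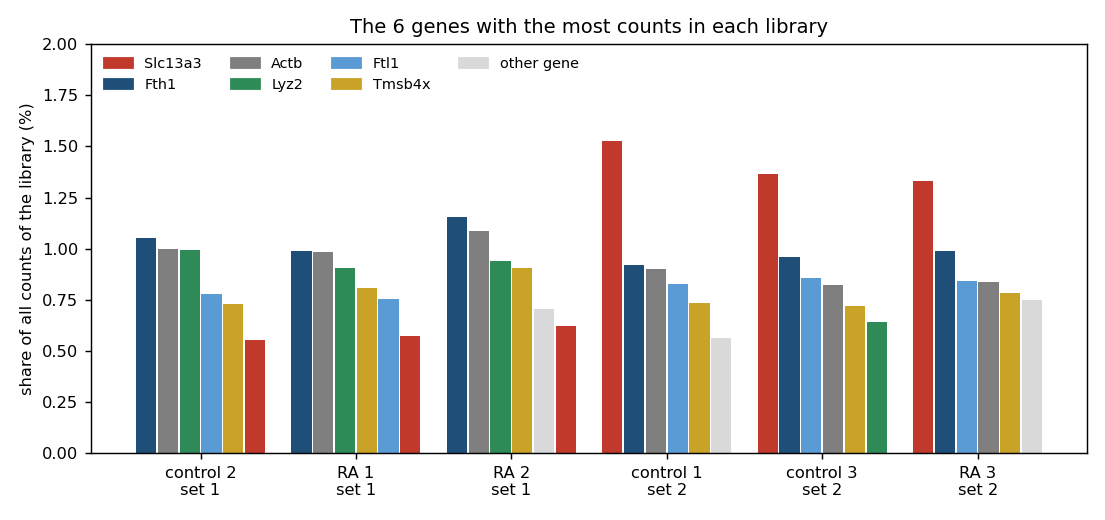
Share of all counts (%, linear axis from 0) taken by the 6 genes with the most counts in each library, ordered by library set and colored by gene, with genes among the 6 in only 1 library in light gray. Slc13a3 is first in control 1, control 3 and RA 3 at 1.53%, 1.37% and 1.33% and sixth in control 2, RA 1 and RA 2 at 0.556% to 0.623%.

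A long transcript collects more reads, and the 5215 exon bases of Slc13a3 lowered its place when counts were divided by exon length. Per kilobase it ranked 5, 14 and 6 in controls 1 to 3 and 16, 20 and 7 in RA 1 to 3, behind Ftl1, the ferritin light chain, which was first in the libraries of set 2, or Lyz2, lysozyme, first in those of set 1. Its level of 1048 to 3019 CPM per kilobase was still above those of the other 4 members, which reached at most 93.6. Slc13a3 is best known from the kidney proximal tubule, of whose 6 markers 3 were listed (Slc34a1, Slc5a2 and Cubn), with a summed level of 0.350 to 1.38 CPM, nearly all of it Cubn. An antisense gene, Gm14437, overlaps Slc13a3 without sharing exon bases and had 0 to 4 counts.

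Whether RA changed these genes was tested over all 13842 tested genes with the quasi-likelihood test of edgeR, where a call needed an adjusted p under 0.05 (Benjamini-Hochberg) and a change of at least 1.5-fold. None of the 5 members was called, and 0.0433% of all tested genes were. None had all RA-treated libraries on one side of all controls, against 12.6% of all tested genes. Slc13a3 was at 11771 ± 5521 CPM (SD, n = 3) in control and 8383 ± 4507 CPM (SD, n = 3) in RA-treated BMSCs, a log2 fold change of -0.49 (standard error 0.50, 95% interval -1.69 to 0.71, edgeR adjusted p = 0.825). The interval reaches from a more than 3-fold decrease to an increase of more than 1.5-fold, so these libraries do not settle the effect of RA on its mRNA without regard to the library sets. Within set 1 the difference was 0.08 on the log2 scale (RA 1 and RA 2 against control 2), and within set 2 it was -0.13 (RA 3 against controls 1 and 3). When the library set entered as a covariate, the log2 fold change was -0.03 (standard error 0.10, 95% interval -0.27 to 0.21, edgeR adjusted p = 0.912). The interval of that fit leaves no room for a 1.5-fold change in either direction, but the sets were drawn from the same counts and its p-values do not allow for that choice.

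Acod1, which makes itaconate, was far lower than the importer and ran the other way between libraries. It had 32.5, 63.3 and 30.0 CPM in controls 1 to 3 and 81.2, 87.1 and 36.0 CPM in RA 1 to 3 (437 to 1463 counts). Control 2, RA 1 and RA 2, the libraries in which Slc13a3 was lower, had the higher values, and RA 3 lay below control 2. The means were 41.9 ± 18.5 CPM (SD, n = 3) in control and 68.1 ± 27.9 CPM (SD, n = 3) in RA-treated BMSCs, a log2 fold change of 0.70 (standard error 0.42, 95% interval -0.29 to 1.69, edgeR adjusted p = 0.795). Within the sets the RA-treated libraries were above the controls by 0.41 (set 1) and 0.21 (set 2) on the log2 scale. Once the set was a covariate, the log2 fold change was 0.31 (standard error 0.09, 95% interval 0.09 to 0.54) and was not called (unadjusted p = 0.0119, edgeR adjusted p = 0.202), in a fit that called 1.54% of all genes.

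Slc25a10, the dicarboxylate carrier, varied between libraries like Slc13a3 but less. It was at 323, 186 and 284 CPM in controls 1 to 3 and at 182, 129 and 275 CPM in RA 1 to 3, again highest in controls 1 and 3 and RA 3. From 264.5 ± 70.7 CPM (SD, n = 3) in control to 195.3 ± 73.6 CPM (SD, n = 3) in RA-treated BMSCs, its log2 fold change was -0.44 (standard error 0.32, 95% interval -1.20 to 0.32, edgeR adjusted p = 0.799), and it was -0.20 once the library set entered as a covariate (standard error 0.14, edgeR adjusted p = 0.504). Slc25a11, the oxoglutarate carrier, was the steadiest member, with 120, 114 and 117 CPM in controls 1 to 3 and 108, 84.5 and 121 CPM in RA 1 to 3. Its only low library was RA 2, and the means of 117.2 ± 2.94 and 104.5 ± 18.6 CPM (SD, n = 3 each) gave a log2 fold change of -0.16 (standard error 0.15, 95% interval -0.52 to 0.19, edgeR adjusted p = 0.809). Slc25a11 shares 189 exon bases with Rnf167 on the opposite strand (178 to 256 counts) and Slc25a10 shares 228 with the antisense gene Gm11788 (0 to 10 counts). Whether the counting used strand is not given in the sources used here, so reads of these stretches cannot be assigned with certainty.

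Clybl, of the breakdown, was the lowest member, with 7.13, 6.43 and 5.70 CPM in controls 1 to 3 and 8.66, 8.60 and 5.79 CPM in RA 1 to 3 (83 to 156 counts). RA 1 and RA 2 were above all controls and RA 3 was among them. The log2 fold change was 0.26 (standard error 0.22, 95% interval -0.28 to 0.80, edgeR adjusted p = 0.803). The genes that overlap Clybl on the opposite strand share no exon bases with it. Per kilobase of exon the mean levels over the 6 libraries were 1932 CPM for Slc13a3, 66.6 for Slc25a10, 52.3 for Slc25a11, 21.0 for Acod1 and 4.88 for Clybl. Slc25a10 and Slc25a11 overlapped in this order (37.4 to 93.6 against 39.8 to 57.2 CPM per kilobase), while Acod1 (11.4 to 33.2) lay below both and above Clybl (3.95 to 6.00) in every library.

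**Figure D2:**
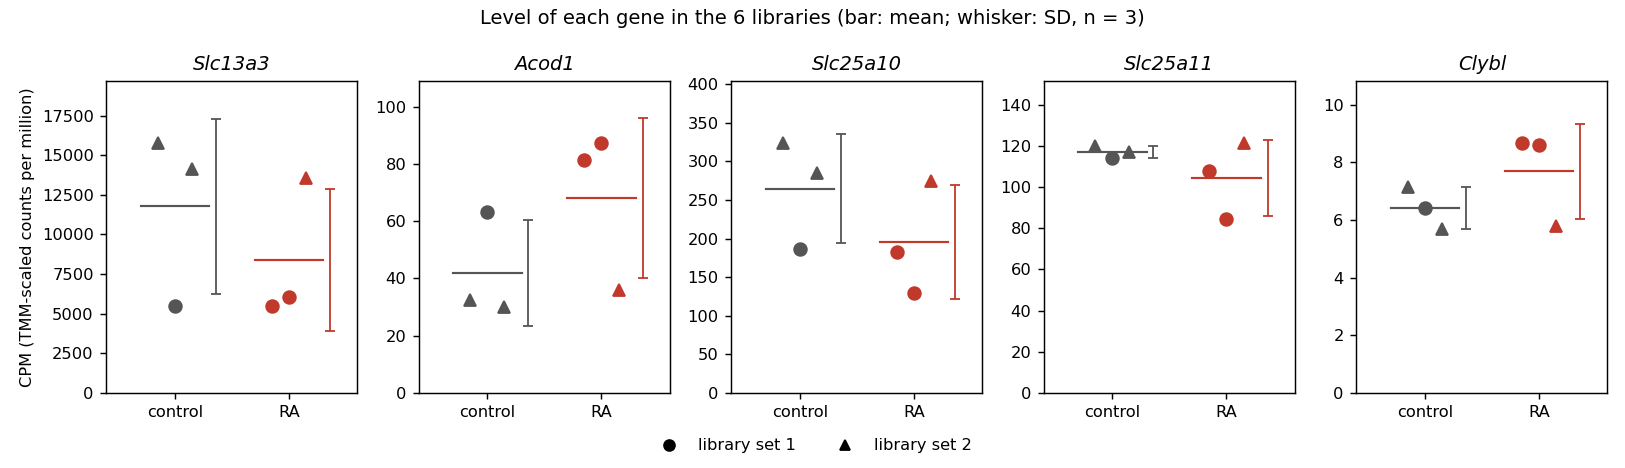
CPM of each member (linear axes from 0, 1 panel per gene, each with its own scale) in the 3 control and the 3 RA-treated libraries, with circles for library set 1, triangles for library set 2, a horizontal line at the group mean and a whisker of 1 SD. The treatment groups overlap in all 5 panels, and the triangles lie above the circles for Slc13a3, Slc25a10 and Slc25a11 and below them for Acod1.

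The library sets parted 4 of the 5 members without overlap, where 47.8% of all tested genes were parted, so that being parted is not particular to them. Since the sets were made from the counts themselves, the sizes are given without a test. Slc13a3 was at 5679.8 ± 334 CPM (SD, n = 3) in set 1 and 14474 ± 1130.2 CPM (SD, n = 3) in set 2, 2.55 times higher, and 625 tested genes were at least 2 times higher in set 2. Acod1 was at 77.2 ± 12.4 CPM (SD, n = 3) in set 1 and 32.8 ± 3.03 CPM (SD, n = 3) in set 2, 2.35 times higher in set 1, and 830 tested genes were at least 2 times higher in set 1. Slc25a10 was 1.77 times and Slc25a11 1.17 times higher in set 2, and Clybl overlapped. The differences held in both treatments for the first 3 of these genes. On the log2 scale, set 2 minus set 1 was 1.45 in controls and 1.23 after RA for Slc13a3, -1.02 and -1.22 for Acod1, and 0.70 and 0.84 for Slc25a10, but 0.05 and 0.35 for Slc25a11. In every comparison of this kind 1 side is a single library, control 2 or RA 3.

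**Figure D3:**
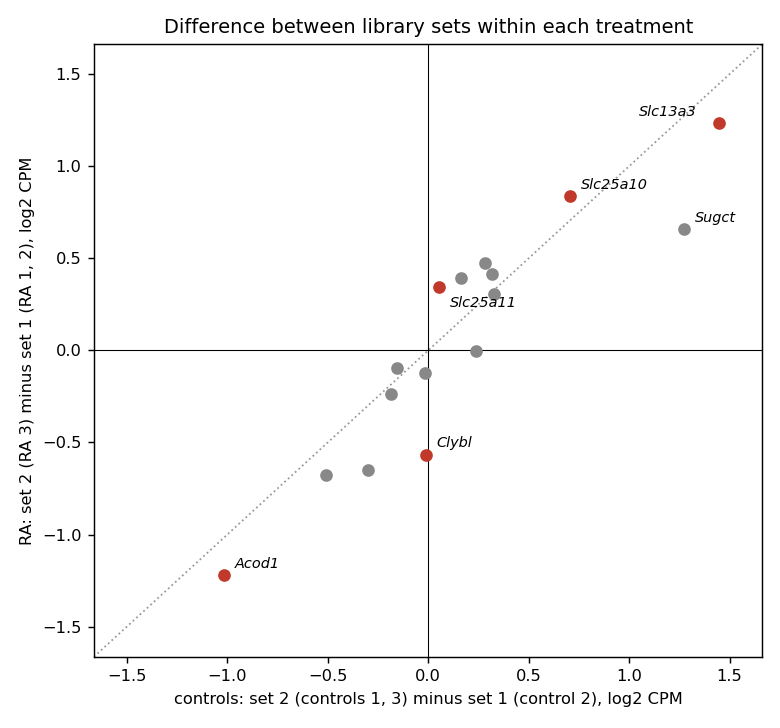
Difference between the library sets in log2 CPM (set 2 minus set 1) in controls (x axis) and after RA (y axis) for 16 itaconate pathway genes, with members in red, other pathway genes in gray and a dotted line where both are equal. Slc13a3 (1.45 and 1.23) and Acod1 (-1.02 and -1.22) lie at opposite ends near the dotted line.

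The genes whose pattern over the 6 libraries was most like that of Slc13a3 were sought by the root mean square difference of centered log2 CPM among 5806 genes with a mean of at least 32 CPM. The nearest were Cnksr3 (0.0317), Cd274, which encodes the checkpoint ligand PD-L1 (0.0384), Eya1 (0.0474), Pfkfb3, an activator of glycolysis (0.0573), and Rtl5 (0.0738). They were 2.44 to 2.67 times higher in set 2, with means of 41.7 to 104 CPM for Cnksr3 and 53.5 to 138 CPM for Cd274 in sets 1 and 2. Among 13841 genes, those nearest to Acod1 were Haus6 (0.0873), Nkd2 (0.0976), Ddx11 (0.103), Rif1 (0.105) and Filip1l (0.107), 2.14 to 2.42 times higher in set 1. All of these patterns share the same 6 libraries and their split into sets.

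The SLC13 family holds sodium-coupled sulfate, dicarboxylate and citrate transporters, and Slc13a3 was the only abundant one of the 4 members listed. Slc13a2, the low-affinity dicarboxylate transporter, had 12, 1 and 7 counts in controls 1 to 3 and 13, 11 and 3 in RA 1 to 3. Slc13a4, a sulfate transporter, had 3 counts in RA 2 and 0 elsewhere and was not tested. Slc13a5, which imports citrate, had 15, 20 and 15 counts in controls 1 to 3 and 3, 2 and 0 in RA 1 to 3. It passed the filter on low counts only through the controls, where it is high, and no RA-treated library had more than 3 counts, so its fitted values and p-values are given as a description and support nothing. Every RA-treated library was below every control, in both library sets, as for 951 of the 13842 tested genes. Allowing for the library totals, its 5 counts after RA against 50 in controls gave a ratio of 0.101 (exact 95% interval 0.0315 to 0.252, for counting error only). The fitted log2 fold change was -3.26 (standard error 0.61, 95% interval -4.73 to -1.80) and Slc13a5 was not called (unadjusted p = 0.00128, edgeR adjusted p = 0.294). When the set was a covariate it was -3.38 (edgeR adjusted p = 0.0447). Over 13 alternatives to the test without a covariate, looked at after these values were seen, the log2 fold change ranged from -3.83 to -2.77 and the adjusted p from 2.99e-05 with the likelihood ratio test of edgeR to 1.00 without RA 2. With DESeq2 the adjusted p was 0.0220, and it was over 0.05 in every fit that left out a library.

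Of the 18 genes listed for itaconate synthesis, transport and breakdown, the members included, 17 were tested and 0 were called, with or without the set as covariate (smallest edgeR adjusted p = 0.795 and 0.202), in fits that called 0.0433% and 1.54% of all tested genes. At an unadjusted p under 0.05 there was 1, Suclg2, against 727 of all tested genes. Their median log2 fold change was 0.06, beside -0.02 over all tested genes. Suclg2 encodes the GTP-forming beta subunit of succinyl-CoA synthetase, which can attach CoA to itaconate, and was at 21.4 ± 0.762 CPM (SD, n = 3) in control and 27.2 ± 1.81 CPM (SD, n = 3) in RA-treated BMSCs. All 3 RA-treated libraries were above the controls, with a log2 fold change of 0.35 (standard error 0.12, 95% interval 0.05 to 0.64, unadjusted p = 0.0271, edgeR adjusted p = 0.795). The other subunits of that enzyme, Suclg1 and Sucla2, had log2 fold changes of 0.13 and 0.04. The lowest value was that of Sugct, a CoA transferase, at -0.95 on 9 to 29 counts per library, followed by Slc13a3 and Slc25a10, and the highest were those of Acod1, Suclg2 and Mmaa (0.29). The citrate carrier Slc25a1 was at -0.27, Auh, the hydratase before Clybl, at 0.06, and the exporter Abcg2 at 0.24. Mmut, whose cofactor itaconyl-CoA can damage, was at 0.08, its helper Mmab at -0.03 and Mcee at 0.14. By library set, 13 of the 17 were parted, 6 higher and 7 lower in set 1, where 47.8% of all tested genes were parted, 3234 higher and 3376 lower.

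**Figure D4:**
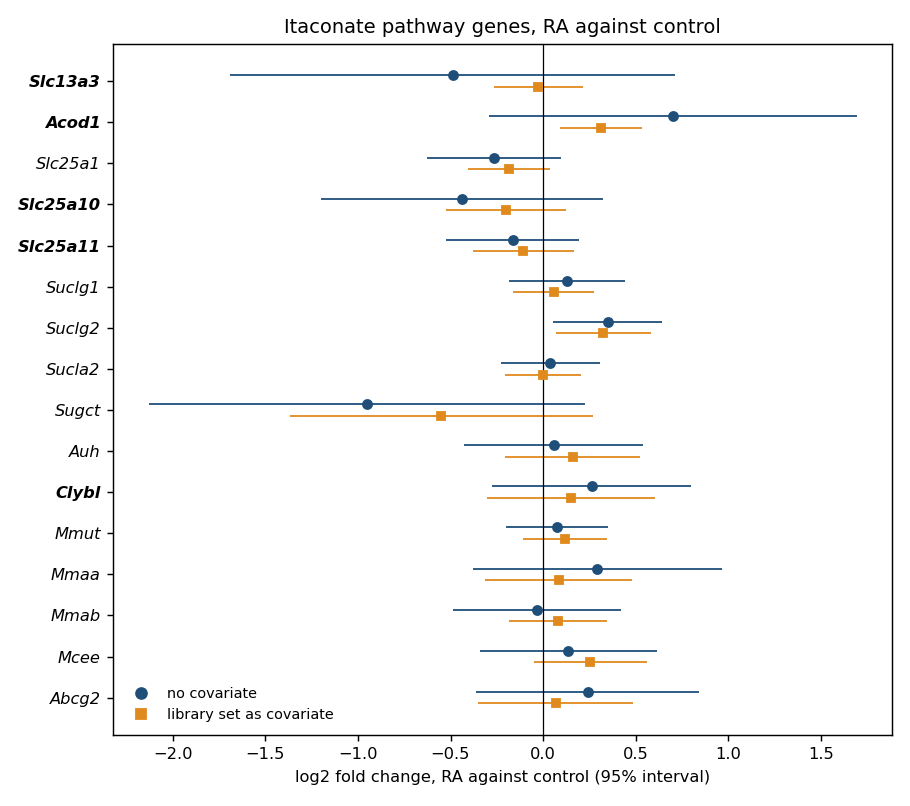
Log2 fold change of RA-treated against control BMSCs (x axis, horizontal lines are 95% intervals) for 16 tested itaconate pathway genes, without a covariate (circles) and with the set as covariate (squares), members in bold. Without the covariate of these the interval of Suclg2 alone lies above 0, and the intervals of Slc13a3 and Acod1 are much wider than with it.

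The genes around the pathway were looked at in the same way, and their counts of calls stand against 0.0433% of all tested genes called. All 17 TCA cycle genes were tested and 0 were called, with a median log2 fold change of 0.04 and values from -0.19 (Sdhd) and -0.08 (Sdhc and Dlst) to 0.17 (Dld and Idh3a) and 0.35 (Suclg2). Of these, 10 were higher and 3 lower in set 1, beside 3234 and 3376 of all 13842 tested genes. Of 7 mitochondrial di- and tricarboxylate carriers 6 were tested and 0 called, with a median of -0.22. The lowest were Slc25a10, the glutamate carrier Slc25a22 (-0.34) and Slc25a1, and the highest was the aspartate-glutamate carrier Slc25a13 (0.27). Among 14 genes of proteins that itaconate or its derivatives are known to modify, restrain or induce, 0 were called and the median was -0.07, from Tfeb (-0.40), Atf3 (-0.35) and Nfkbiz (-0.31) to Gapdh (0.20) and Nlrp3 (0.27). The 8 targets of NRF2, the factor that KEAP1 holds in check, had a median of 0.16 and 0 calls, from Nqo1 (-0.40) to Gsr (0.30) and Txnrd1 (0.31). All 8 were higher in every library of set 1, as were 3234 of the 13842 tested genes, with a summed level of 2152 to 2419 CPM against 1466 to 1581 in set 2. Of 10 receptors and factors that induce Acod1, 0 were called, with a median of -0.09, and 7 were lower in set 1, as were 3376 of all tested genes. Rela, a subunit of NF-κB, was at -0.36. Tlr4, the receptor for lipopolysaccharide, had the highest at 0.47 (standard error 0.13, unadjusted p = 0.00788, edgeR adjusted p = 0.602), with 48.2 ± 5.90 CPM (SD, n = 3) in control and 66.8 ± 2.81 CPM (SD, n = 3) in RA-treated BMSCs.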

How the data were processed

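RNA of 3 control and 3 RA-treated BMSC libraries was sequenced on an Illumina HiSeq instrument. The authors deposited raw read counts for each gene in a separate table per library, without normalization. The submitters' processing notes name Bowtie2 2.2.3 and mm10. The counting program, the annotation release and the strand setting are not given in the sources used here. Treatment and replicate were taken from the sample labels.

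Counts were analysed in R 4.3.3 with edgeR 4.0.16. Genes passing filterByExpr (13842 of 25722) were scaled by TMM and tested by the quasi-likelihood F test of RA-treated against control libraries, without covariates, with Benjamini-Hochberg adjustment over all tested genes. Calls needed a change of 1.5-fold or more besides an adjusted p under 0.05. Log2 CPM for library sets and likeness used a prior count of 2. Exon lengths and positions were taken from GENCODE M21. All 25722 identifiers were found there, and 110 of 120 list genes matched a row. Slc13a1 and Oxgr1 are among those not analysed here. Of 2 rows named Aldoa, the one with more counts was used, and Mmut was matched by an older symbol.

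The genes named are the members, the gene ranked first and those next to Slc13a3 in each library, the SLC13 family, up to 3 list genes at each end of the log2 fold changes, the 5 genes most like Slc13a3 and Acod1, genes that overlap members, and the other itaconate pathway genes, apart from some that are not reported here. The members and all lists were chosen with earlier results of these data known.

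All libraries were kept as separate samples, since replicates of a group differed by a chi-square of 4.88 to 91.8 per degree of freedom. The alternatives were DESeq2 1.42.0, the likelihood ratio test, scaling by library size or upper quartile, filters requiring 10 counts in all libraries or 1 count in at least 1, the replicate block, the library set as a covariate, and leaving out each library. Intervals on counts cover counting error only and take no account of PCR copies, which are not separate molecules.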

Additional observations from a re-analysis of the deposited data

How the results depend on the processing

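The 5 members had 0 calls and so did the itaconate pathway genes under every alternative run, and no member changed direction. Within the library sets the direction held for Acod1 and Slc25a10 only. RA minus control in log2 CPM was -0.26 in set 1 and 0.03 in set 2 for Slc25a11. It was 0.42 and -0.14 for Clybl, and 0.08 and -0.13 for Slc13a3. Across 14 alternatives the log2 fold change ranged from -1.02 to -0.03 for Slc13a3 (edgeR or DESeq2 adjusted p from 0.356), from 0.31 to 1.14 for Acod1 (from 0.202), from -0.76 to -0.20 for Slc25a10 (from 0.332), from -0.29 to -0.03 for Slc25a11 (from 0.391) and from 0.15 to 0.43 for Clybl (from 0.365). Leaving out 1 library at a time moved the values of Slc13a3 between -1.02 and -0.22 and those of Acod1 between 0.48 and 1.14, the widest shifts among the members, and the pathway median between 0.03 and 0.11.

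Over all genes, 5 were called raised and 1 lowered. The counts were 98 and 38 with DESeq2, 93 and 41 with the likelihood ratio test, 17 and 3 with 1 count in any library as the filter, 103 and 110 with the set as covariate, and 0 lowered with library size alone. Leaving out 1 library gave 0 to 6 raised, with 0 without control 1, 2 without control 2 and 1 without control 3, RA 1 or RA 2, and 0 lowered. With the replicate block 4 were raised and 0 lowered. The deviations of libraries with the same number had correlations of -0.51, 0.34 and 0.57. Control 1 and RA 1 lie in different library sets and the other pairs in the same set. These correlations therefore cannot settle whether the numbers pair the libraries. With the block the log2 fold change was 0.68 for Acod1 (unadjusted p = 0.0266 with edgeR) and -0.47 for Slc25a10 (unadjusted p = 0.0463). By counts per kilobase the rank of Slc13a3 was 5, 14 and 6 in controls 1 to 3 and 16, 20 and 7 in RA 1 to 3. Where the causes of these shifts are not plain from the setting, the cause was not tested. The values of Clybl (83 to 156 counts per library), Sugct and the SLC13 genes other than Slc13a3 rest on fewer counts than those of the other members. The part of depth in their spread was not tested.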
